A study of Homo sapiens with 4 samples.

Results

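The promoters of 38 genes encoding secreted factors of the TGF-beta superfamily and their antagonists were examined, out of 20242 promoters with deposited chromatin immunoprecipitation sequencing (ChIP-seq) values. The genes were chosen by name. They comprised 30 ligand genes and 8 antagonist genes, and each symbol matched 1 row. The cells were JMJD3c-hESCs, a derivative of SEES-3, a line of human embryonic stem cells (hESCs), that also carries the reverse Tet-transactivator. A piggyBac transgene places the catalytic part of the H3K27 demethylase JMJD3, with a hemagglutinin tag and a nuclear localization signal, under a Tet-responsive element, so that doxycycline (Dox) turns it on. Stable clones were selected with puromycin, and which clone was sequenced is not stated in the sources used here. Both conditions were kept feeder-free in StemFit AK-03 medium and therefore share the line, the transactivator and the transgene. Untreated cells (−Dox) received no Dox, and treated cells (+Dox) received 1 µg/ml and were collected on day 3. In each condition 1 library was made with an antibody against trimethylated H3K27 (H3K27me3), the mark laid down by Polycomb repressive complex, and 1 with an antibody against trimethylated H3K4 (H3K4me3), the mark of active or poised promoters. None of the 4 libraries was repeated, so no difference given here has a replicate check and no p-value is given.

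The ligands of this superfamily are secreted as dimers and bind pairs of type I and type II receptor kinases at the cell surface. Activins, NODAL and TGF-betas signal through SMAD2 and SMAD3, and most bone morphogenetic proteins (BMPs) through SMAD1, SMAD5 and SMAD9. In hESCs the activin and NODAL branch helps to keep cells undifferentiated and, at higher dose, drives them to mesoendoderm, whereas the BMP branch drives mesoderm and extraembryonic fates. Antagonists act outside the cell by holding the ligand (noggin, chordin, gremlin, follistatin, cerberus), by blocking receptor complexes (LEFTY proteins), or in the membrane as a receptor without a kinase (BAMBI).

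The deposited values are coverage scaled to library reads and added up from 3 kb before to 3 kb after 1 transcription start site per gene, so all genes share 1 window length. The implied libraries held between 2629351 and 3509244 reads. For H3K27me3 a value of 20, the threshold above which the study's methods call a promoter enriched, corresponded to about 15.8 reads in −Dox and 16.0 in +Dox. For H3K4me3 it corresponded to about 20.6 and 15.9 reads. The labelled cell type was checked on H3K4me3. Of 10 genes used as embryonic stem cell markers 9 were above 20 in −Dox cells, the exception being POU5F1, whose deposited start lies 10049 bp from its canonical start. Of 8 fibroblast and blood markers 2 were above 20, namely COL1A2 and THY1. Among all promoters 63.7% were above 20 for H3K4me3 in −Dox cells, so a value above 20 does not by itself identify a cell type.

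Before induction, the ligands and antagonists fell into 4 classes. A promoter was bivalent if each mark exceeded 20, H3K27me3-only or H3K4me3-only if a single mark did, and unmarked otherwise. This put 12 of the 38 (31.6%) in the bivalent class, 1 in the H3K27me3-only class, 12 in the H3K4me3-only class and 13 in the unmarked class. Among all 20242 promoters 9.42% were bivalent. The largest class there was H3K4me3-only with 10980 promoters, whereas among the members it was no larger than the bivalent class. The unmarked class took a similar share of both sets, with 7036 of the 20242 and 13 of the 38. Only 319 of all promoters carried H3K27me3 alone. The bivalent promoters belonged to 6 of 9 BMP genes (BMP2, BMP3, BMP4, BMP6, BMP8A and BMP8B), to GDF6 and GDF7 among 11 GDF genes counting MSTN, to INHBB among 5 activin and inhibin subunit genes, and to NOG, CHRD and GREM1 among 5 secreted antagonists. The H3K27me3-only promoter was that of CER1. NODAL, AMH, the LEFTY genes and the TGF-beta genes had no promoter above 20 for H3K27me3. Among the bivalent ones the −Dox H3K27me3 value ranged from 28.9 at NOG to 165 at GDF6, and the −Dox H3K4me3 value from 31.6 at BMP8B to 114 at BMP4.

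**Figure D1:**
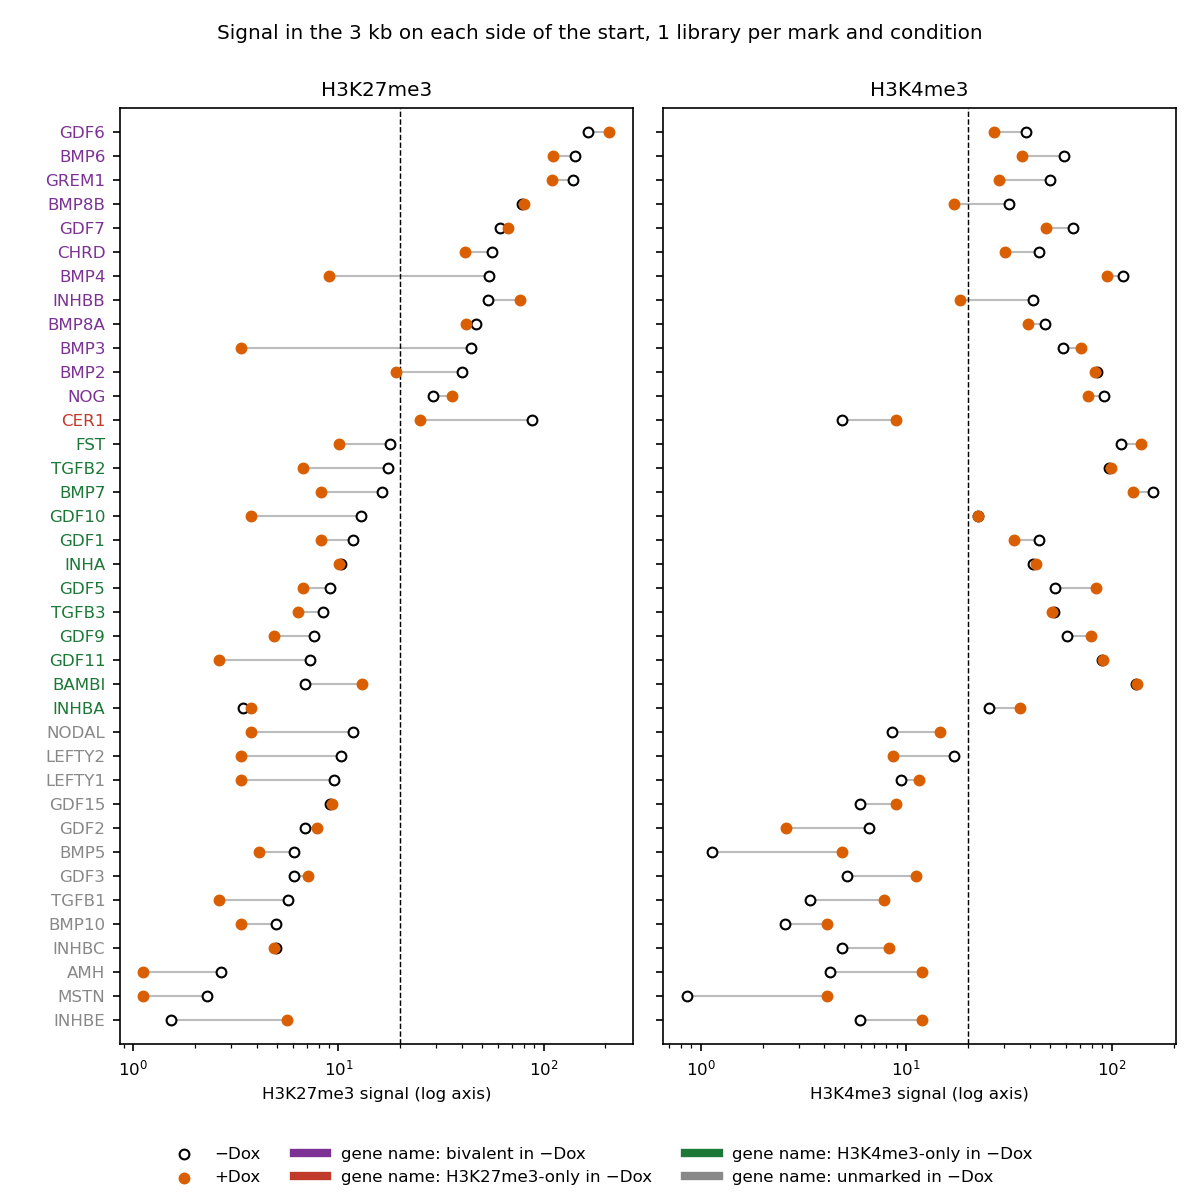
Signal of H3K27me3 (left) and H3K4me3 (right) on a log axis at the 38 promoters in −Dox (open circles) and +Dox cells (filled circles), with 1 library per mark and condition, the dashed line at 20 and gene names coloured by class in −Dox cells. The longest H3K27me3 distances among promoters above 20 for this mark in −Dox cells belong to BMP3, BMP4 and CER1, and the bivalent promoters at the top lie to the left in +Dox for H3K4me3, with BMP3 as the exception.

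The classes differed in the number of CG dinucleotides, which vertebrate genomes keep mainly in CpG islands. Positions are those of GRCh37, the assembly behind hg19, and 35 of the 38 transcripts could be placed. Windows of bivalent members held a median of 306 CG (range 157 to 484, n = 11), against a median of 219 over all bivalent promoters with a position. H3K4me3-only members held a median of 193 (n = 11) and unmarked members 102 (n = 12). CER1 held 47, below the lowest value of the bivalent members, although its −Dox H3K27me3 value of 87.5 was exceeded by only BMP6, GDF6 and GREM1 among them. AMH was the unmarked member with the most CG, 357 in its window.

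**Figure D2:**
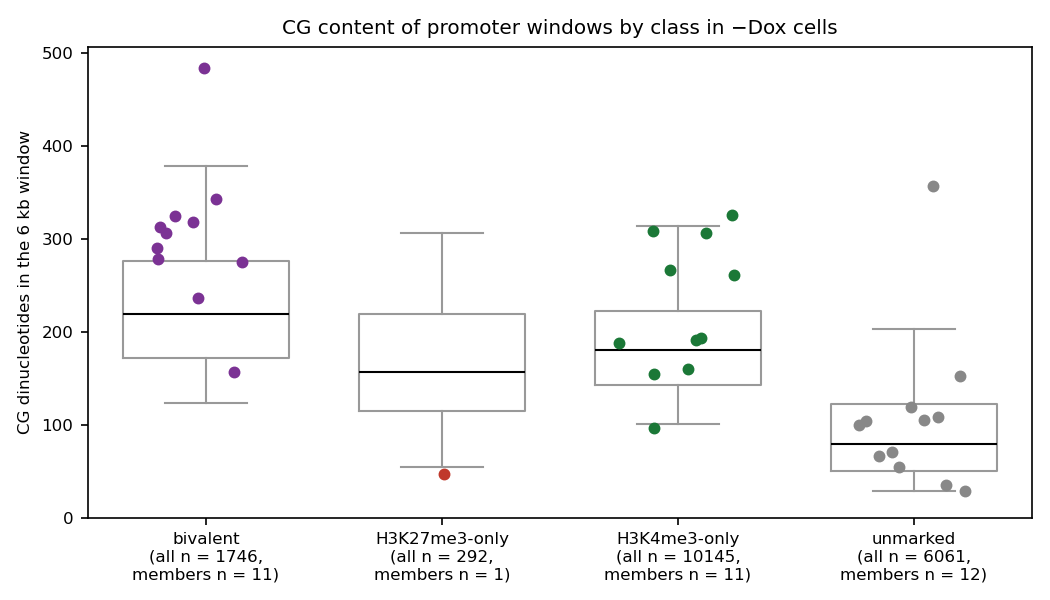
Number of CG dinucleotides in the 6 kb window by class in −Dox cells. Points are ligands and antagonists with a position, and boxes show the quartiles of all promoters of the class, with whiskers from the 5th to the 95th percentile. Most bivalent members lie above the box median of 219, CER1 lies at 47, and the unmarked members have a median of 102.

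The 250 bases before the deposited start are printed for 4 members, as examples from 3 of the 4 classes that span CG-rich and CG-poor stretches, with each CG in capitals. INHBB (chr2:121103462-121103711, + strand) and BMP6 (chr6:7726082-7726331, + strand) were bivalent promoters that kept their H3K27me3 value above 20. CER1 (chr9:14722732-14722981, − strand) was H3K27me3-only, with less H3K27me3 in +Dox cells, and MSTN (chr2:190927456-190927705, − strand) unmarked. None of these stretches overlaps an annotated exon.
INHBB: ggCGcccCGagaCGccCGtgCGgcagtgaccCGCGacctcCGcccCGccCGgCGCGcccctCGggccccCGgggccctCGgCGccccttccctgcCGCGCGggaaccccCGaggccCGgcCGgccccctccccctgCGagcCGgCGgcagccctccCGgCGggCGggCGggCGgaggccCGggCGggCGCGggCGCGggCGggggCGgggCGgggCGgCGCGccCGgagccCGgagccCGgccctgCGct
BMP6: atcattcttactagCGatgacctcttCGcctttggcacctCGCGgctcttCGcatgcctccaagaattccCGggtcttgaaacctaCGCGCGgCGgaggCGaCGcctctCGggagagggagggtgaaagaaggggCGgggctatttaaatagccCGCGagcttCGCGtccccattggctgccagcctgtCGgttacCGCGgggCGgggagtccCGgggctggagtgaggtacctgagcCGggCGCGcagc
CER1: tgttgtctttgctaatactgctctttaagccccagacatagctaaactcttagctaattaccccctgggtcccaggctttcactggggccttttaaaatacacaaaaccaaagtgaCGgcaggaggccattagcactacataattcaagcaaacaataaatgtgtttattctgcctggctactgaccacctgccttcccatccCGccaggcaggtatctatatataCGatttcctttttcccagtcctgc
MSTN: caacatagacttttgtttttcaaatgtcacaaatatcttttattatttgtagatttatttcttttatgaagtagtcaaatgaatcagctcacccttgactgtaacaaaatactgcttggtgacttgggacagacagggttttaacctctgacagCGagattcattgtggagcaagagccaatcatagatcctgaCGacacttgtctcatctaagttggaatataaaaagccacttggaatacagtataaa

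These stretches held 46 CG at INHBB, 26 at BMP6, 3 at CER1 and 2 at MSTN. Over all 18244 placed promoters the same stretch held a median of 16 CG, and 96.7% of promoters held at least 1. CG is its own reverse complement, so both strands give the same count. INHBB held more than 99.3% of promoters did, BMP6 more than 75.2%, CER1 more than 14.1% and MSTN more than 8.79%. Over the whole 6 kb window, the CG count and the log2 H3K27me3 ratio had a Pearson r of 0.75 and a Spearman rho of 0.65 at the 11 bivalent members with a position, and of 0.25 and 0.28 at all 1746 such promoters, as a description without a test. CG content did not sort the bivalent members by their H3K27me3 ratio throughout. BMP2, which had less of the mark in +Dox cells, held 313 CG in its window, and NOG, which did not, held 318. In the 250 bases before the start, BMP2 held 41, NOG 17 and BMP3 5, so not every bivalent member was CG-rich in this stretch.

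Induction of JMJD3c went with a much lower H3K27me3 signal at CER1, BMP3 and BMP4. The signal at BMP2 was lower by a smaller margin, which depends on how the libraries are scaled. At the other bivalent members no lower signal, relative to the reads of the library, was detectable at this depth. Among the 12 bivalent members, 3 (25%) kept less than 0.5 of their −Dox H3K27me3, namely BMP2, BMP3 and BMP4, while 40.8% of all bivalent promoters met this threshold. The median log2 ratio (+Dox over −Dox) of the 12 was −0.25, against −0.81 over all 1907 bivalent promoters. Of these 12, 7 had a lower value in +Dox cells and 5 a higher one, while 1671 of all 1907 bivalent promoters had a lower value. BMP8A turns from lower to higher when both H3K27me3 libraries are scaled to the same total over promoters, which moves every log2 ratio by 0.23. The bivalent members also had a higher median −Dox H3K27me3 value, 55.1 against 43.0, and over all bivalent promoters the mean value of both conditions and the log2 ratio had a Spearman rho of 0.56, a description in which the +Dox value enters both measures. Whether the level of the mark accounts for the difference was not tested. With all 38 promoters together, 13 (34.2%) were below 0.5, against 21.5% of all promoters with a ratio, but 9 of the 13 were below 20 in −Dox cells and had at most about 13.8 reads there.

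Approximate reads gave each ratio a 95% interval (exact Clopper-Pearson bounds on the fraction of both libraries' reads found in +Dox). Since PCR copies were not marked by identifiers, reads may repeat a molecule. The interval covers counting error only, compares 2 libraries, and is not adjusted for the number of promoters. For H3K27me3 it lay below 1 at 4 of the 38 members (7.06% of all promoters) and above 1 at 1 (1.59%). Among the 12 bivalent members it lay below 1 at 3 (48.6% of all bivalent promoters) and above 1 at 1 (2.15%).

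BMP4, a ligand that directs mesoderm and trophoblast differentiation of hESCs, went from an H3K27me3 value of 54.4 without Dox to 8.95 with Dox (ratio 0.165, interval 0.0608 to 0.359). Its start is on chromosome 14 (ENSG00000125378, window 54420529 to 54426529), 14 bp from the canonical start. About 42.9 reads were followed by about 7.17, so the 2 libraries differed well beyond counting error. H3K4me3 at BMP4 was 114 and 94.3, a ratio of 0.830 (0.612 to 1.12), and a change of this mark was not detectable at this depth, though the interval lies below 1 (0.545 to 0.996) when libraries are scaled over promoters of low signal.

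BMP3, which encodes an atypical BMP that counteracts others in bone, had the lowest H3K27me3 ratio of the members above 20. The value was 44.1 without Dox and 3.36 with Dox (ratio 0.0761, interval 0.0166 to 0.268) on chromosome 4 (ENSG00000152785). The +Dox value rests on about 2.69 reads and lay below the median of all promoters, 5.97. H3K4me3 at BMP3 was 57.8 and 71.2, a ratio of 1.23 (0.839 to 1.79), which made BMP3 the only bivalent member with a higher H3K4me3 value in +Dox cells.

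BMP2, a close relative of BMP4 that acts through the same receptors, showed 39.9 and 19.0 for H3K27me3 (ratio 0.476, interval 0.239 to 0.909) on chromosome 20 (ENSG00000125845). This ratio was just inside the threshold of 0.5, and BMP7, with 16.4 and 8.20 (ratio 0.502), was just outside it. With both libraries scaled to the same total, the BMP2 ratio is 0.560 and its interval (0.281 to 1.07) includes 1. Its H3K4me3 was 84.3 and 82.8, a ratio of 0.981 (0.701 to 1.37). BMP2, BMP3 and BMP4 were the 3 bivalent members that fell into the H3K4me3-only class in +Dox cells, a change made by 39.1% of all bivalent promoters. BMP2 did so at an H3K27me3 value just below 20, and with both libraries scaled to the same total 2 members made this change.

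The other 3 bivalent BMP promoters stayed near their H3K27me3 level. BMP6, a ligand best known for controlling hepcidin in the liver, had the values 142 and 111, a ratio of 0.786 (0.585 to 1.04) at chromosome 6 (ENSG00000153162, 7723332 to 7729332). BMP8A (ENSG00000183682, chromosome 1, 39954308 to 39960308) had 46.8 and 41.8, a ratio of 0.893 (0.532 to 1.44). BMP8B (ENSG00000116985, chromosome 1, 40251537 to 40257537) had 78.3 and 80.2, a ratio of 1.02 (0.705 to 1.46). The BMP8 genes are near-identical copies whose reads can be shared or lost in mapping, so both values are uncertain. At the depth of BMP6, the interval allows a relative signal of no less than 0.585 of the −Dox value, and that of BMP8A one down to 0.532.

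GDF6 and GDF7, which pattern joints, the dorsal neural tube and the eye, had higher H3K27me3 values in +Dox cells. GDF6 (ENSG00000156466, chromosome 8, 97170034 to 97176034) had 165 and 209, a ratio of 1.27 (1.01 to 1.61), and was the member with the most H3K27me3 in both conditions. GDF7 (ENSG00000143869, chromosome 2, 20863904 to 20869904) had 61.6 and 67.1, a ratio of 1.09 (0.723 to 1.63). INHBB (ENSG00000163083, chromosome 2, 121100712 to 121106712), which encodes the beta B subunit of activin B, had 53.6 and 76.8, a ratio of 1.43 (0.967 to 2.20), and its interval lies above 1 after scaling to the same total. Since values are relative to the reads of a library, a ratio near 1 or above it says nothing of the absolute amount of mark per cell.

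The bivalent antagonist promoters also stayed above 20. NOG, encoding the BMP-binding noggin (ENSG00000183691, chromosome 17, 54668060 to 54674060), showed 28.9 and 35.8 for H3K27me3 (ratio 1.24, interval 0.693 to 2.25). CHRD, encoding the BMP-binding chordin (ENSG00000090539, chromosome 3, 184095109 to 184101109), had 55.9 and 41.4, a ratio of 0.740 (0.455 to 1.19). GREM1, encoding gremlin (ENSG00000166923, position not assigned), had 139 and 110, a ratio of 0.792 (0.593 to 1.06). The intervals of these 3 antagonists include 1, and that of CHRD also includes the ratio of BMP2, whereas those of NOG and GREM1 lie above it. H3K4me3 was 92.0 and 76.8 at NOG, and 44.2 and 30.2 at CHRD.

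CER1, which encodes cerberus, an antagonist of NODAL and BMPs made by early endoderm, was the antagonist promoter above 20 for H3K27me3 but not for H3K4me3. H3K27me3 there was 87.5 without Dox, about 69.0 reads, and 24.98 with Dox (ratio 0.286, interval 0.164 to 0.475) (ENSG00000147869, chromosome 9, 14719731 to 14725731). The interval of CER1 lies below those of GREM1 and NOG and overlaps that of CHRD. H3K4me3 at CER1 was 4.84 and 8.95, or about 4.98 and 7.12 reads, and the ratio of 1.85 (0.494 to 7.23) shows no change detectable at this depth. CER1 remained H3K27me3-only in +Dox cells.

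**Figure D3:**
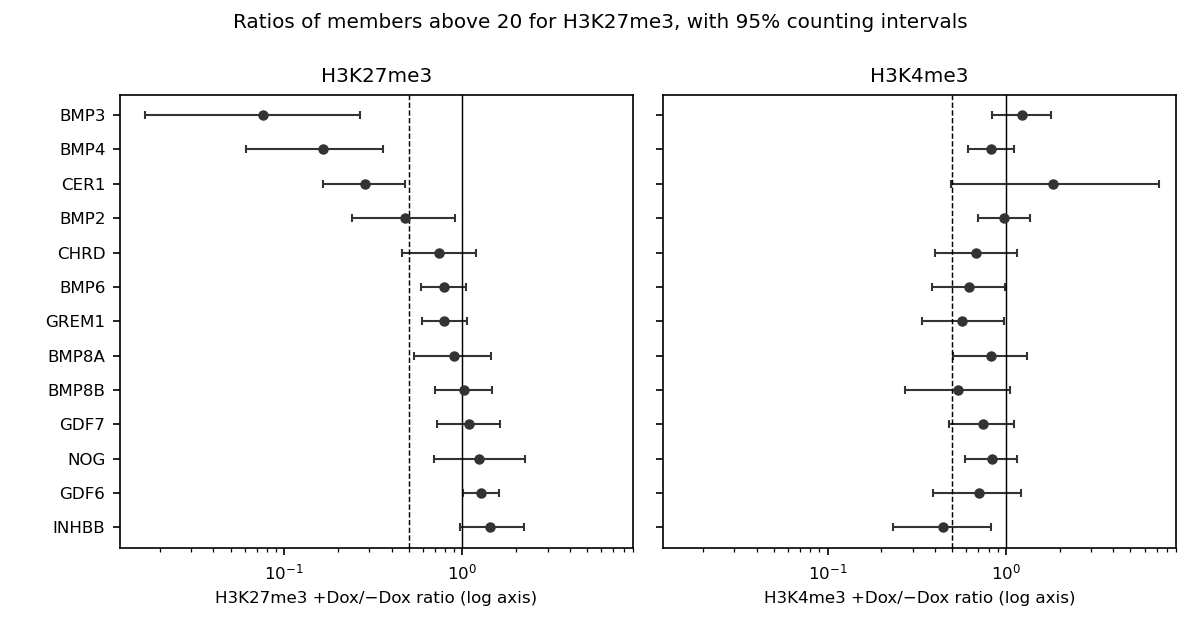
Ratios of +Dox over −Dox for H3K27me3 (left) and H3K4me3 (right) on log axes at the 13 promoters above 20 for H3K27me3. Points are single ratios, bars are 95% counting intervals, and vertical lines mark 1 (solid) and 0.5 (dashed). For H3K27me3, BMP3, BMP4, CER1 and BMP2 lie wholly below 1 and GDF6 lies wholly above it.

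For H3K4me3, 11 of the 12 bivalent members had the lower value with Dox (BMP2 turns slightly higher at equal totals), with a median log2 ratio of −0.47, whereas 1289 of all 1907 bivalent promoters had a lower value and their median was −0.18. The interval lay below 1 at 3 of the 38 members (3.06% of all promoters) and above 1 at 1 (1.73%). The 3 were among the 12 bivalent members, where 10.1% of all bivalent promoters had an interval below 1 and 1.63% one above 1. At INHBB, H3K4me3 was 41.3 without and 18.3 with Dox (ratio 0.442, interval 0.233 to 0.828). At GREM1 it was 49.9 and 28.3, a ratio of 0.568 (0.340 to 0.971). At BMP6 it was 58.7 and 36.5, a ratio of 0.622 (0.387 to 0.989), and this interval includes 1 after scaling to the same total. The upper bounds at GREM1 and BMP6 are close to 1, so these are weaker than the value at INHBB.

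INHBB and BMP8B were the 2 bivalent members that became H3K27me3-only in +Dox cells, as H3K4me3 passed below 20, and 7.24% of all bivalent promoters did the same. BMP8B had H3K4me3 values of 31.6 and 17.2, a ratio of 0.542 (0.271 to 1.05). H3K4me3 was 47.6 and 39.1 at BMP8A, 38.2 and 26.8 at GDF6, and 65.0 and 48.1 at GDF7. The remaining bivalent promoters had H3K4me3 ratios of 0.684 at CHRD, 0.703 at GDF6, 0.740 at GDF7, 0.823 at BMP8A and 0.834 at NOG, each with an interval that includes 1. Scaling over promoters of low signal, which moves every log2 H3K4me3 ratio by −0.17, puts the intervals of BMP8B, GDF7 and BMP7 below 1 as well. In all, 7 of the 12 were still bivalent in +Dox cells, against 51.0% of all bivalent promoters.

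The 2 marks were then set side by side at the bivalent members. BMP2, BMP3 and BMP4, with H3K27me3 ratios below 0.5, had H3K4me3 ratios of 0.981, 1.23 and 0.830. The other 9 had H3K4me3 ratios from 0.442 to 0.834 with a median of 0.684, so the ranges met only at BMP4 and NOG. Over all bivalent promoters the median H3K4me3 ratio was 0.965 where H3K27me3 was below 0.5 (n = 779) and 0.829 elsewhere (n = 1128). Across the 12 members the log2 ratios of the marks had a Pearson r of −0.70 and a Spearman rho of −0.51. The same measures over all bivalent promoters were −0.36 and −0.36. Promoters are not replicates, all points come from the same 4 libraries, and these coefficients are descriptions without a test.

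**Figure D4:**
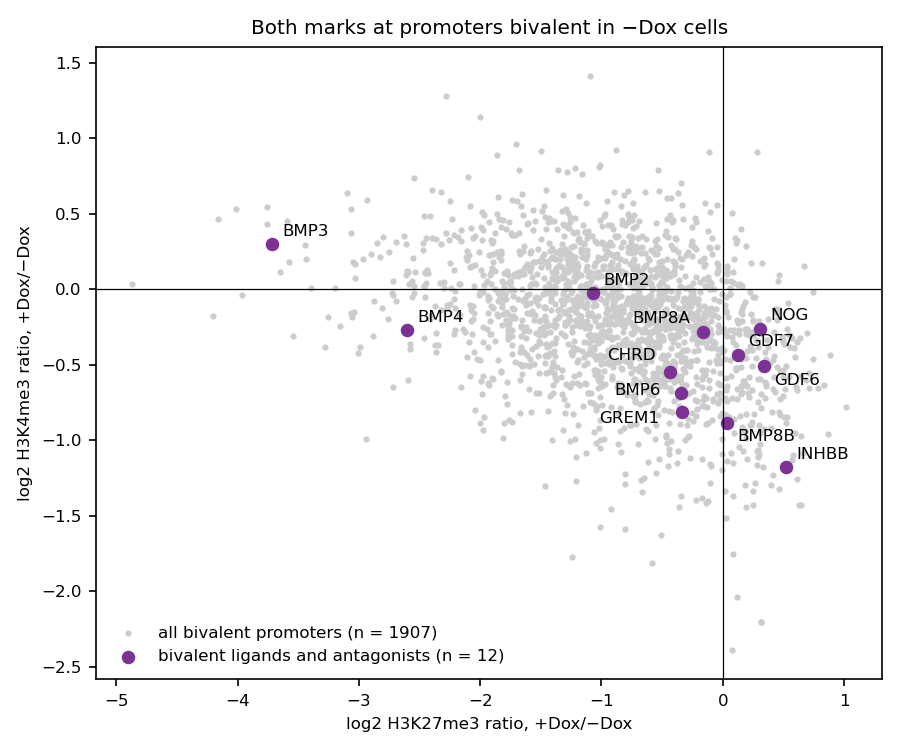
The log2 ratio of H3K27me3 (horizontal) against that of H3K4me3 (vertical) at promoters bivalent in −Dox cells, with the 12 ligands and antagonists named over all 1907 bivalent promoters in grey. BMP3 and BMP4 lie far to the left at little changed H3K4me3, and INHBB lies lowest on the right.

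The H3K4me3-only members were 10 ligand genes (BMP7, GDF1, GDF5, GDF9, GDF10, GDF11, TGFB2, TGFB3, INHA and INHBA) with FST and BAMBI. The deposited start of INHA lies 3148 bp from the canonical one. Their H3K27me3 values were 3.42 to 17.9 in −Dox and 2.61 to 13.05 in +Dox cells, and every H3K27me3 interval included 1. The highest of these H3K27me3 values were those of FST (17.9 and 10.1), TGFB2 (17.5 and 6.71) and BMP7, all below the threshold but above the median of all promoters in −Dox cells, 6.09. The most H3K4me3 was found at BMP7 (158 and 128), BAMBI (131 and 133) and FST (111 and 138), which encode a BMP ligand, a decoy receptor and the activin-binding follistatin. INHBA, the beta A subunit of activin A, had 25.4 and 35.8. GDF5, a joint-forming ligand, was the member with an H3K4me3 interval above 1, with 53.0 and 84.3 (ratio 1.59, interval 1.09 to 2.29), beside 9.13 and 6.71 for H3K27me3. That window overlaps the one of CEP250 and its start lies 16560 bp from the canonical GDF5 start, so the value cannot be given to GDF5 alone, and its interval includes 1 after scaling over promoters of low signal. GDF1 (44.5 and 33.6) shares a transcription unit with CERS1, and the GDF9 window (60.7 and 79.0) overlaps that of UQCRQ, so neither value belongs to the ligand gene alone.

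The unmarked members were NODAL, LEFTY1, LEFTY2, TGFB1, AMH, BMP5, BMP10, GDF2, GDF3, GDF15, MSTN, INHBC and INHBE. All had at most about 9.29 reads of H3K27me3 in −Dox cells, and no interval excluded 1 for either mark, so a change could not be detected at this depth. Several of these genes are read at a start that is not the main one. The deposited start lies 6270 bp from the canonical start at NODAL, 11892 bp at TGFB1, 22236 bp at LEFTY1 and 11427 bp at GDF15. NODAL, the ligand of mesoendoderm and left-right axis formation, had H3K27me3 values of 11.8 and 3.73 and H3K4me3 values of 8.55 and 14.5 at its deposited start. LEFTY2, its feedback inhibitor, was read at the canonical start and had H3K27me3 values of 10.3 and 3.36 and H3K4me3 values of 17.1 and 8.58. GDF3, another ligand of the NODAL type expressed in pluripotent cells, had H3K4me3 values of 5.13 and 11.2. The lowest H3K4me3 values in −Dox cells were those of MSTN (0.855 and 4.10) and BMP5 (1.14 and 4.85), which act in muscle and skeletal development.

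The same readouts were taken for 45 other genes of the pathway, of which 9 were bivalent. Of the 9, 6 had an H3K27me3 ratio below 0.5, beside 40.8% of all bivalent promoters. The median of all 9 on the log2 scale was −1.16. Among the receptors, BMPR1B, a type I BMP receptor, had H3K27me3 values of 70.4 and 20.9, with the ratio 0.297 (0.166 to 0.532), beside 51.3 and 51.1 for H3K4me3. ACVR1C, the type I receptor ALK7 used by NODAL, had 50.6 and 34.3 (ratio 0.678, interval 0.392 to 1.11). The co-receptors of the repulsive guidance family, which enhance BMP signalling, all had intervals below 1. H3K27me3 was 39.2 and 5.97 at RGMA (ratio 0.152), 30.4 and 10.1 at RGMB (ratio 0.331), and 32.7 and 8.95 at HFE2 (ratio 0.274), which encodes hemojuvelin. The start of RGMB lies 4368 bp from the canonical one, and HFE2 was not bivalent but H3K27me3-only in −Dox cells. CHRDL2, a chordin-like antagonist, had 98.5 and 53.3 (ratio 0.541, interval 0.365 to 0.797). Of the 8 SMAD genes, 7 were H3K4me3-only and SMAD6, an inhibitor of BMP signalling, was bivalent with 29.3 and 13.4 for H3K27me3 (ratio 0.458), an interval that just includes 1. For H3K4me3 the interval lay above 1 at TGFBR2 (ratio 1.43, interval 1.01 to 2.03) and CHRDL1 (ratio 2.18, interval 1.13 to 4.33). It lay below 1 at DAND5 (ratio 0.422, interval 0.184 to 0.985). Over all promoters 1.73% had an interval above 1 and 3.06% one below 1. The nearer bounds at TGFBR2 and DAND5 are close to 1. DAND5 belongs to the cerberus family, and its start lies 4417 bp from the canonical one.

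**Figure D5:**
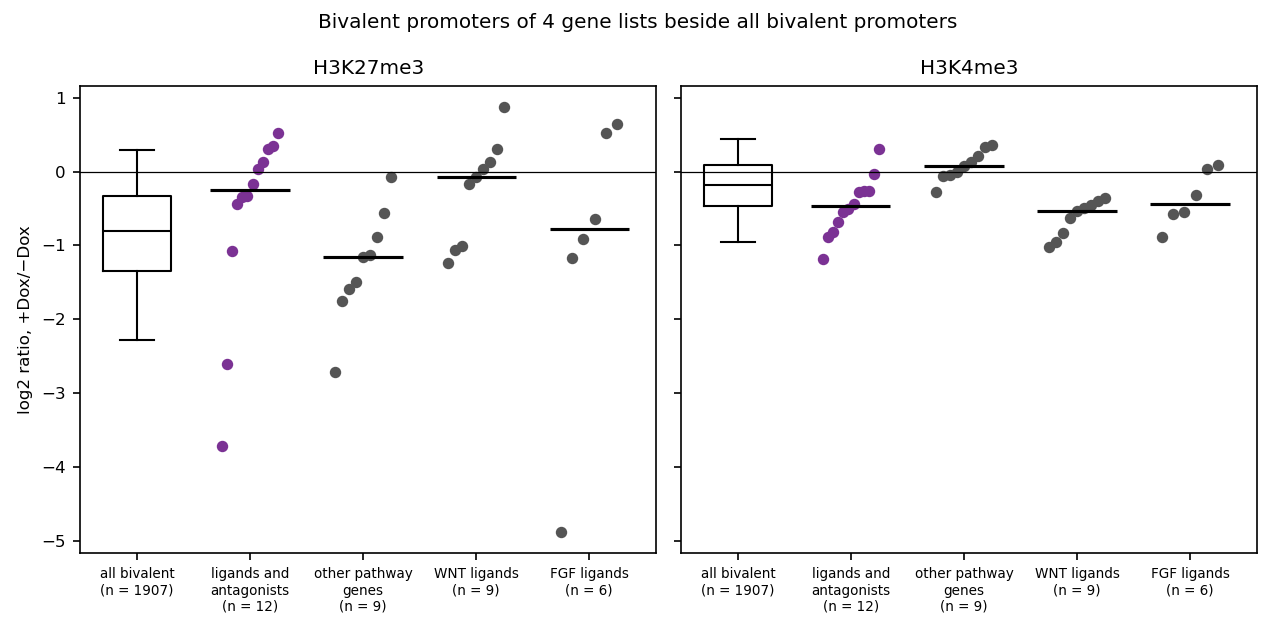
The log2 ratios of H3K27me3 (left) and H3K4me3 (right) at bivalent promoters. The box shows the quartiles of all 1907 with whiskers from the 5th to the 95th percentile, points are single genes of each list, and bars are list medians. For H3K27me3 the ligands and antagonists have a median of −0.25, the other pathway genes −1.16, the WNT ligands −0.07 and the FGF ligands −0.78.

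WNT and FGF ligands, the other large families of secreted signals in the early embryo, were taken through the same steps. Of 19 WNT genes 9 were bivalent, with a median log2 H3K27me3 ratio of −0.07 and 3 below 0.5. Of 22 FGF genes 6 were bivalent, with a median of −0.78 and 2 below 0.5. In each list 33.3% of the bivalent promoters were below 0.5, beside 40.8% of all bivalent promoters. The median log2 H3K4me3 ratios at the bivalent promoters were −0.47 for the TGF-beta superfamily members, −0.53 for WNT and −0.44 for FGF ligands, and 0.08 for the other pathway genes. With 1 library per group these medians describe the lists, and no difference between them was tested.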

How the data were processed

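The 4 ChIP-seq libraries (H3K27me3 and H3K4me3, each −Dox and +Dox) were sequenced by the authors on a MiSeq as single-end reads and mapped to hg19 with Bowtie2, whose version is not given in the sources used here. CASAVA 1.4 is also named in the submitters' processing notes. Mitochondrial reads were left out. The deposited values are signal, coverage from ngs.plot that the authors scaled to the library and summed around 1 start per gene. The study also describes a scaling to the density behind transcription ends, and whether the deposited signal carries it is not stated.

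All values were whole multiples of 1 step per file, taken as 1 read at 1 data point (0.285 to 0.380). The mean of values of 3 or 4 steps gave 3.34 to 3.41 steps per read, from which approximate reads were computed for intervals only. The step of both +Dox files was the same and implies 2682085 reads in each. Whether that number is right for both was not tested, and an error in it would multiply all ratios of a mark by 1 factor. No input library was used here.

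The members and lists were chosen with earlier results of these data known. Each member was accounted for, with values in the 4 libraries for members above 20 for H3K27me3 in either condition or with an interval that excludes 1. Pathway genes were named where H3K27me3 in −Dox cells was at least 50 or an interval excluded 1, while SMAD6, the marker genes and the values of members outside this rule were added after they were seen. Starts were matched by transcript identifier to GENCODE 44 on GRCh37 (18244 of 20242, 90.1%). Ratios carry no pseudocount. Items withheld from this text are not reported here. The interval code was checked on simulated reads. Python 3.11.15, scipy 1.17.1 and pysam 0.24.0 were used. Alternatives were scaling, pseudocounts, class rules, a filter on low values, canonical starts and overlapping windows.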

Additional observations from a re-analysis of the deposited data

How the results depend on the processing

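The 9 summary results were recomputed under 11 alternatives, and 59 of 71 values stayed within 1.5 times the reported count or within the 95% order-statistic interval of the reported median. That interval takes the 12 bivalent members as if they were replicates. It is wide, from −1.07 to 0.31 for H3K27me3 and from −0.82 to −0.26 for H3K4me3. The minimum mean of 10 and the removal of overlapping windows kept all 12 bivalent members, so results on these could not move there. The tally is therefore not a measure of robustness. No paired analysis was possible because the design holds a single library for every mark and condition, for which reason none could be left out either. The median log2 H3K27me3 ratio of the bivalent members stayed negative under the alternatives run, between −0.43 and −0.02, the latter with both libraries scaled to the same total, and the H3K4me3 median lay between −0.64 and −0.31. A class threshold of 10 gave 19 bivalent members, of which 6 were below 0.5 for H3K27me3 and 6 became H3K4me3-only. Classes from the +Dox values gave 7 bivalent members, with 0 below 0.5 and 0 H3K4me3-only, as the construction requires for the latter. With scaling to the same total, 2 members had an H3K27me3 interval above 1. With scaling over low promoters, 7 had an H3K4me3 interval below 1 and 0 one above 1. The number with an H3K4me3 interval above 1 was also 0 with a minimum mean of 10 in both marks, with canonical starts only and without overlapping windows, since GDF5 is then left out. The cause of the other moves was not tested. Most members have too few H3K27me3 reads for a change to be seen.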
